A study of Mus musculus with 11 samples.

Results

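The genes described here are 10 members of the bone morphogenetic protein (BMP) and transforming growth factor beta (TGF-beta) signalling family in mouse pancreatic islets: the ligand genes *Bmp4*, *Tgfb1* and *Inhba*, the receptor genes *Bmpr1a* and *Bambi*, the inhibitory Smads *Smad6* and *Smad7*, and the Id genes *Id1*, *Id2* and *Id3*. They were chosen by symbol, each matched 1 row of the 55536 genes in every count table, and all 10 passed the filter on low counts in every comparison. Bulk RNA-seq of poly(A) RNA was carried out on 11 islet libraries of wild-type C57BL/6J female mice that entered the study at 9 weeks of age. Multipara mice went through 3 pregnancies in a row and were studied 3 weeks after the last delivery, and the virgin controls were their littermates of the same age. S-961, an antagonist of the insulin receptor that makes mice insulin resistant, was injected intraperitoneally in both parity groups before the islets were taken, and the untreated groups received no S-961.

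There were 2 virgin untreated, 2 multipara untreated, 3 virgin S-961 and 4 multipara S-961 libraries. Nothing in the sources says that the untreated mice were given a vehicle, or that untreated and S-961 islets were prepared together, so S-961 and any such difference cannot be told apart. The labels number the libraries as replicates without naming the animals, so the p-values measure the spread between these libraries, part of which may be technical. Whole islets were sequenced, and fewer cells of a type and less RNA per cell cannot be told apart in such data.

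BMP and TGF-beta ligands are secreted dimers that bring together type I and type II receptor kinases at the cell surface. The receptors phosphorylate receptor Smads (Smad1, Smad5 and Smad9 for BMP, Smad2 and Smad3 for TGF-beta and activin), which enter the nucleus with Smad4. The Id genes are classical BMP targets, and Id proteins lack a DNA-binding domain and capture E proteins such as Tcf3, which keeps basic helix-loop-helix factors off DNA. Smad6, Smad7 and Bambi are inhibitors whose transcription the pathway itself can raise. In islets, signalling through Bmpr1a has been tied to insulin secretion, and activins to the growth and identity of β cells.

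Of the 10 genes, *Inhba*, *Id3* and *Bmpr1a* passed the test of S-961 against untreated islets in both parity groups, each in the same direction. So did 4844 of all 17996 tested genes. Taken alone, 36.5% of all tested genes passed in virgin and 37.6% in multipara islets. *Inhba* had the largest change of the 3. *Inhba*, which encodes the βA subunit shared by activins and inhibin, lies on GRCm38 chr13:16011851-16031621 on the plus strand. *Id3* lies on chr4:136143497-136145755 on the plus strand, *Bmpr1a*, the type I BMP receptor, on chr14:34410734-34503341 on the minus strand, and *Id1* on chr2:152736251-152737410 on the plus strand. The sequence upstream of the annotated start is shown for *Inhba* and *Bmpr1a*, 2 of the 3 genes that passed in both parity groups, up to the first base annotated as UTR. The 250 bases of *Inhba* (RefSeq, GRCm38.p6, chr13:16011601-16011850, plus strand) and the 109 bases of *Bmpr1a* (chr14:34502688-34502796, minus strand, in an intron of a longer annotated *Bmpr1a* transcript) were searched on both strands for GGCGCC, a motif bound by BMP Smads, and CAGACA, a Smad-binding element, and matches are in capitals.
Inhba: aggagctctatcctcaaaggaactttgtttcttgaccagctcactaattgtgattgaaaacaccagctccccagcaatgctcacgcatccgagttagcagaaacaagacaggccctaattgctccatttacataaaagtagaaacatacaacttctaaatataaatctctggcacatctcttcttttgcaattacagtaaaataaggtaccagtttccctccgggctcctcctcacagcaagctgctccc
Bmpr1a: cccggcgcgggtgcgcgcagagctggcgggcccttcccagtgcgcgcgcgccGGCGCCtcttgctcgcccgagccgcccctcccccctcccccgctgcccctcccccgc
Over the whole promoter windows of the RefSeq table, 7 of the 10 genes had an entry, *Bmpr1a* and *Id2* held GGCGCC and none held CAGACA, against 11.9% and 21.0% of 32851 promoters. The *Inhba* stretch was 43.2% G and C, and that of *Bmpr1a* was 84.4%.

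Library depth ran from 22028507 to 32234146 counts, so even *Bmp4* was covered, but only by 3 to 45 counts per library. Per kilobase of exon, *Bmp4* was the lowest gene in both S-961 groups and *Inhba* in both untreated groups. *Ins1* and *Ins2* took 13.2% to 20.7% of counts in S-961 libraries and 35.3% to 41.4% in untreated ones, and markers of β, α and δ cells were found in every library. The summed level of 8 acinar markers, in CPM (counts scaled to the size of the library), was 33.1 to 85.7 in untreated and 1127 to 8196 in S-961 libraries, and no acinar marker other than *Ptf1a* was at 0 in any library. The library labelled multipara untreated 1 stood apart by 790 CPM of 7 macrophage markers, against 200 CPM in replicate 2, and by 180 against 23.2 CPM of 4 lymphocyte markers. It was also high in 7 proliferation markers, at 88.6 CPM, against 7.25 CPM in replicate 2 and 11.7 to 16.3 CPM in virgin untreated libraries. The library labelled multipara S-961 4 stood apart by 12.2 CPM of 7 proliferation markers, within the 10.6 to 28.7 CPM of virgin S-961, whereas multipara S-961 1 to 3 had 136 to 303 CPM. No gene was used here to check the parity labels, so whether labels of the S-961 libraries were exchanged was not tested. The labels were used as given, and every S-961 value of virgin or multipara islets, and each direction between them, holds for the libraries so labelled. Many of the results that rest on these libraries are given with and without them.

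**Figure D1:**
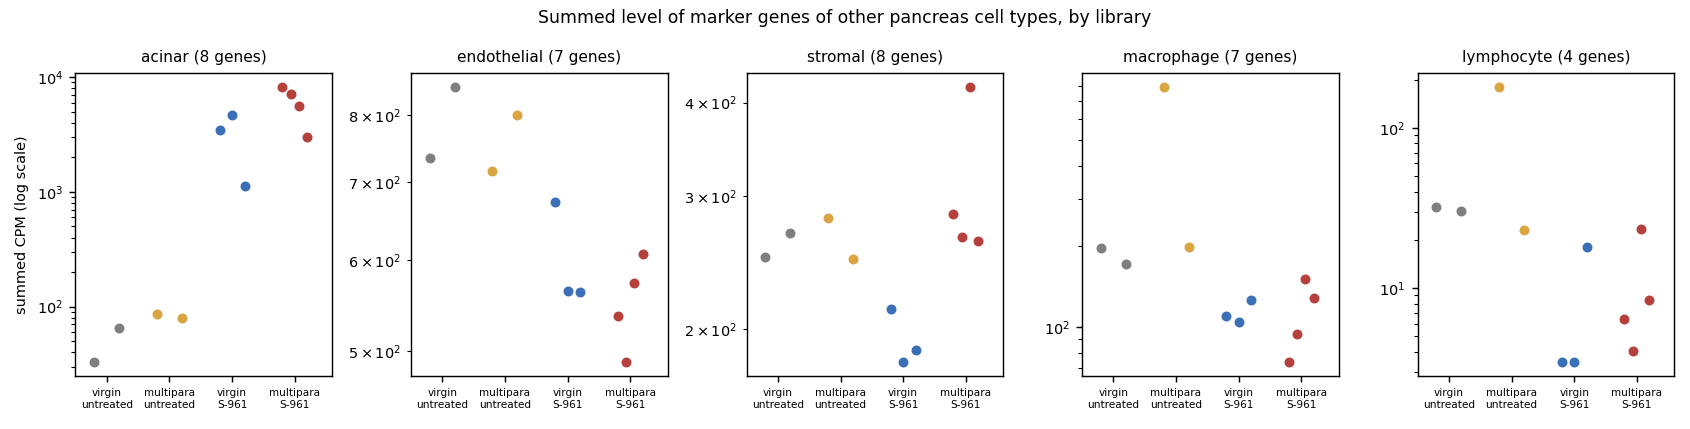
Summed CPM (log axis) of marker genes of 5 other pancreas cell types in each of the 11 libraries, 1 point per library in 4 groups. Acinar sums are 33.1 to 85.7 CPM in untreated and 1127 to 8196 CPM in S-961 libraries, and the macrophage and lymphocyte sums of multipara untreated 1 lie above those of all other libraries.

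Per kilobase of exon, which allows levels to be compared between genes, *Bambi* was the highest of the 10 in untreated islets, at 16.5 ± 4.10 CPM per kb in virgin (SD, n = 2) and 10.3 ± 0.139 in multipara islets (n = 2). In virgin untreated islets, *Id1* (9.28), *Id3* (9.21) and *Bmpr1a* (8.20 CPM per kb) followed, and the libraries of *Id3* overlapped with those of both others, while *Id1* lay above *Bmpr1a* in both libraries. *Id2* (3.10), *Smad7* (1.80), *Tgfb1* (1.21), *Smad6* (1.12) and *Bmp4* (0.350 CPM per kb) came next, with *Inhba* the lowest at 0.0709 CPM per kb. With S-961, *Bmpr1a* came first, at 11.4 ± 0.950 CPM per kb in virgin (n = 3) and 11.5 ± 1.08 in multipara islets (n = 4), overlapping with *Bambi* at 9.30 and 9.91. *Inhba* moved above *Bmp4* in both S-961 groups, at 0.652 ± 0.247 CPM per kb in virgin and 1.20 ± 0.555 in multipara islets.

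**Figure D2:**
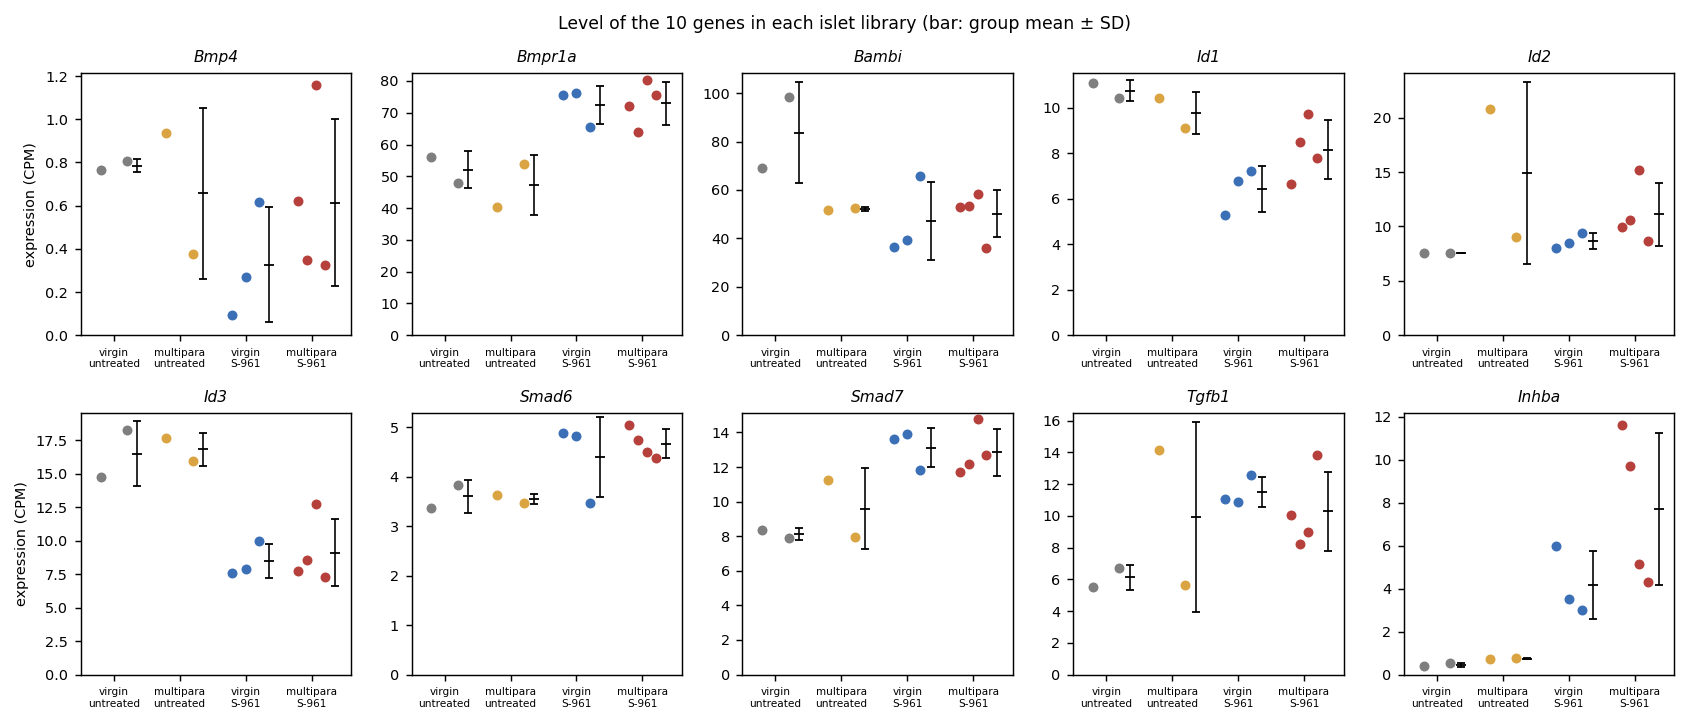
Expression (CPM, linear axes from 0) of the 10 genes in each library, 1 point per library, with the mean and SD of each of the 4 groups as a bar beside the points. *Inhba* is below 0.8 CPM in all untreated and above 3 CPM in all S-961 libraries, and *Id3* is above 14 CPM in all untreated and below 13 CPM in all S-961 libraries.

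Among the ligands, *Inhba* rose with S-961 in both parity groups. It was at 0.383 and 0.524 CPM in virgin untreated islets and at 5.97, 3.53 and 3.01 CPM in virgin S-961 islets. Multipara values of *Inhba* were 0.715 and 0.756 CPM untreated and 11.6, 9.72, 5.15 and 4.29 CPM with S-961. Every S-961 library was above every untreated one, and within multipara S-961 the 4 libraries spread more widely than the 3 of virgin S-961. The log2 fold change was 3.19 ± 0.54 (SE) in virgin islets (edgeR adjusted p = 0.00143) and 3.38 ± 0.53 in multipara islets (adjusted p = 0.000902), that is 9.14-fold and 10.4-fold. The untreated values rest on 10 to 16 counts per library. Over the alternative settings, the adjusted p stayed between 1.62e-07 and 0.0228 in virgin and between 3.34e-09 and 0.0134 in multipara islets, and without both libraries that stood apart the multipara change was 3.54.

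Acinar markers moved with *Inhba*. The library highest in *Inhba*, multipara S-961 1, was also highest in the acinar sum (8196 CPM), and the S-961 library lowest in *Inhba*, virgin S-961 3, was lowest in it (1127 CPM). Between them the orders differed in part. Virgin S-961 1 had 5.97 CPM of *Inhba* and an acinar sum of 3478.5 CPM, and virgin S-961 2 had 3.53 CPM and a sum of 4638 CPM. The 5 genes whose log2 CPM followed *Inhba* most closely over the 11 libraries, among 11269 genes, were *Nup155* (Pearson r = 0.99), *3110039I08Rik* (0.98) and the genes of the pancreatic enzymes *Cela2a* (0.98), *Try4* (0.98) and *Ctrl* (0.98). Within the 7 S-961 libraries the same correlations were 0.99, 0.87, 0.82, 0.83 and 0.81. These are descriptions over libraries that share the contrast between S-961 and untreated islets, and the part of acinar cells in the change of *Inhba* was not tested.

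The other ligands of the 10 did not pass the test. *Tgfb1*, the founding member of the family, was at 5.55 and 6.69 CPM in virgin untreated and at 11.04, 10.9 and 12.6 CPM in virgin S-961 islets, without overlap, with a log2 difference of 0.91 ± 0.34 (adjusted p = 0.0600). Multipara *Tgfb1* was at 14.2 and 5.67 CPM untreated and at 10.1, 8.23, 8.98 and 13.8 CPM with S-961 (0.04 ± 0.32, adjusted p = 0.924). The first of these values comes from multipara untreated 1, the library with high macrophage, lymphocyte and proliferation markers, and without it the log2 difference was 0.86. The virgin value of *Tgfb1* lay on the threshold, since DESeq2 gave an adjusted p of 0.0263. The fit of virgin libraries alone gave 0.00192, the lowest of all settings, but *Tgfb1* did not pass in every setting. Leaving out 1 library gave a log2 difference of 0.78 to 1.05. *Bmp4*, a ligand of Bmpr1a, was at 0.765 and 0.806 CPM in virgin untreated and at 0.0927, 0.272 and 0.615 CPM in virgin S-961 islets, and its log2 difference of -1.26 had an SE of 0.78 (adjusted p = 0.230). In multipara islets it ran from 0.325 to 1.16 CPM with S-961 and was at 0.938 and 0.378 CPM untreated, and the groups overlapped.

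Both receptor genes changed in virgin islets. *Bmpr1a* was at 56.2 and 48.0 CPM in virgin untreated islets and at 75.6, 76.2 and 65.4 CPM with S-961. Its multipara levels were 40.5 and 54.0 CPM untreated and 72.1, 64.0, 80.3 and 75.5 CPM with S-961. All S-961 values lay above all untreated ones, and the log2 fold changes were 0.48 ± 0.16 in virgin (adjusted p = 0.0343) and 0.63 ± 0.15 in multipara islets (adjusted p = 0.00823). *Bambi*, a membrane protein that resembles a type I receptor without its kinase and dampens TGF-beta and BMP signals, was at 69.0 and 98.4 CPM in virgin untreated and at 36.6, 39.2 and 65.7 CPM in virgin S-961 islets, and fell by 0.83 ± 0.27 on the log2 scale (adjusted p = 0.0325), or by 0.55 without virgin untreated 2 (adjusted p = 0.282). In multipara islets it was at 51.6 and 52.6 CPM untreated and at 53.2, 53.2, 58.5 and 36.1 CPM with S-961, with a log2 difference of -0.05 ± 0.26 (adjusted p = 0.887). The difference between the parity groups in this response was 0.78 ± 0.37 on the log2 scale and did not pass the test (adjusted p = 0.766). A gene on the opposite strand, *Gm17110*, shares 290 exon bases with *Bmpr1a* and reached at most 0.0873 CPM.

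Of the inhibitory Smads, *Smad7*, which blocks type I receptors of the TGF-beta and BMP branches, rose in virgin islets. It was at 8.38 and 7.90 CPM untreated and at 13.6, 13.9 and 11.8 CPM with S-961, without overlap (log2 fold change 0.69 ± 0.18, adjusted p = 0.0134). Multipara *Smad7* was at 11.3 and 7.94 CPM untreated and at 11.7, 12.2, 14.8 and 12.7 CPM with S-961. The multipara groups did not overlap either, but the log2 difference of 0.42 ± 0.17 had an adjusted p of 0.0804, and without multipara untreated 1 it was 0.69 with an adjusted p of 0.0433. *Smad6*, which acts mainly on the BMP branch, ran from 3.46 to 4.88 CPM in virgin S-961 and from 4.37 to 5.04 CPM in multipara S-961 islets, against 3.37 to 3.83 CPM in the 4 untreated libraries. Its log2 differences were 0.29 ± 0.23 (adjusted p = 0.361) in virgin and 0.40 ± 0.22 (adjusted p = 0.182) in multipara islets.

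The Id genes did not move as a group. *Id3* was at 14.8 and 18.2 CPM in virgin untreated and at 7.60, 7.85 and 9.96 CPM in virgin S-961 islets. The multipara values were 17.7 and 15.9 CPM untreated and 7.73, 8.55, 12.7 and 7.30 CPM with S-961. No S-961 library reached an untreated one, and *Id3* fell by 0.96 ± 0.24 on the log2 scale in virgin (adjusted p = 0.00970) and by 0.89 ± 0.22 in multipara islets (adjusted p = 0.0106). *Id1* was at 11.1 and 10.4 CPM in virgin untreated and at 5.29, 6.79 and 7.25 CPM in virgin S-961 islets, and fell by 0.74 ± 0.20 (adjusted p = 0.0164). In multipara islets *Id1* was at 10.5 and 9.14 CPM untreated and at 6.64, 8.497, 9.73 and 7.80 CPM with S-961. These multipara values overlapped through S-961 replicate 3, and the log2 difference of -0.26 ± 0.20 did not pass (adjusted p = 0.308). The response of *Id1* differed between the parity groups by 0.48 ± 0.29, which also did not pass (adjusted p = 0.807).

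*Id2* behaved otherwise. It was at 7.58 and 7.54 CPM in virgin untreated and at 8.01, 8.45 and 9.45 CPM in virgin S-961 islets (log2 difference 0.19 ± 0.32, adjusted p = 0.676). Multipara islets had 20.8 and 9.01 CPM untreated and 9.95, 10.6, 15.2 and 8.69 CPM with S-961 (-0.43 ± 0.30, adjusted p = 0.275). The value of 20.8 CPM is that of multipara untreated 1, and without that library the multipara difference turned to 0.30. *Id4*, a further Id gene outside the 10, had log2 differences of -0.42 in virgin and 0.71 in multipara islets, neither of which passed. The 5 genes closest to *Id1* over the 11 libraries were *Mxra7* (Pearson r = 0.94), *Aldh2* (0.93), *Lrig1* (0.92), *Mcub* (0.92) and *Cldn4* (0.91), again as a description of libraries that share the S-961 contrast.

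In all, 6 of the 10 genes passed in virgin islets, 3 higher and 3 lower, where 36.5% of 17996 tested genes did (18.8% higher and 17.6% lower). In multipara islets 3 passed, 2 higher and 1 lower, where 37.6% of genes did (18.2% higher and 19.4% lower). By DESeq2, 7 of the 10 passed in virgin and 3 in multipara islets, where 39.7% and 41.1% of genes did. The S-961 and untreated libraries did not overlap for 9 of the 10 genes in virgin islets and 5 in multipara islets, where 68.3% and 49% of all genes did not. With so many genes changing, the share of the 10 in multipara islets was close to that of all genes, and the median log2 difference of the 10 was 0.24 in virgin and -0.0041 in multipara islets, against -0.04 and 0.03 over all genes tested. The summed markers of endothelial cells, a site of Id gene expression, were 490 to 674 CPM in S-961 and 717 to 847 CPM in untreated libraries. The 7 markers did not move alike. With S-961, 3 of them passed as lower in virgin and 2 in multipara islets, and *Plvap*, *Flt1* and *Cdh5* overlapped between the virgin groups. The part of endothelial cells in the values of *Id1* and *Id3* was not tested. The calls other than *Inhba* rest on few untreated libraries, and in the settings that follow the share of all genes called was lower as well. Without virgin untreated 2, which leaves 1 library assumed to vary like the others, *Inhba* alone of the 10 passed in virgin islets, where 16% of all genes did. Without virgin untreated 1, 3 of the 10 passed there (18.4% of all genes), without virgin S-961 1 again 3 (27.4%), and without virgin S-961 2, 4 of the 10 (27.7%). In multipara islets, *Bmpr1a* (adjusted p = 0.115) and *Id3* (0.0803) no longer passed without multipara untreated 1, where 19.2% of all genes passed. Without multipara untreated 2, which leaves only the library with high macrophage and lymphocyte markers, the log2 difference of *Id2* was -0.90. It was 0.30 without multipara untreated 1. Without both libraries that stood apart, *Inhba* alone of the 10 passed, where 19.3% of all genes did, and the change of *Bmpr1a* was 0.42.

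**Figure D3:**
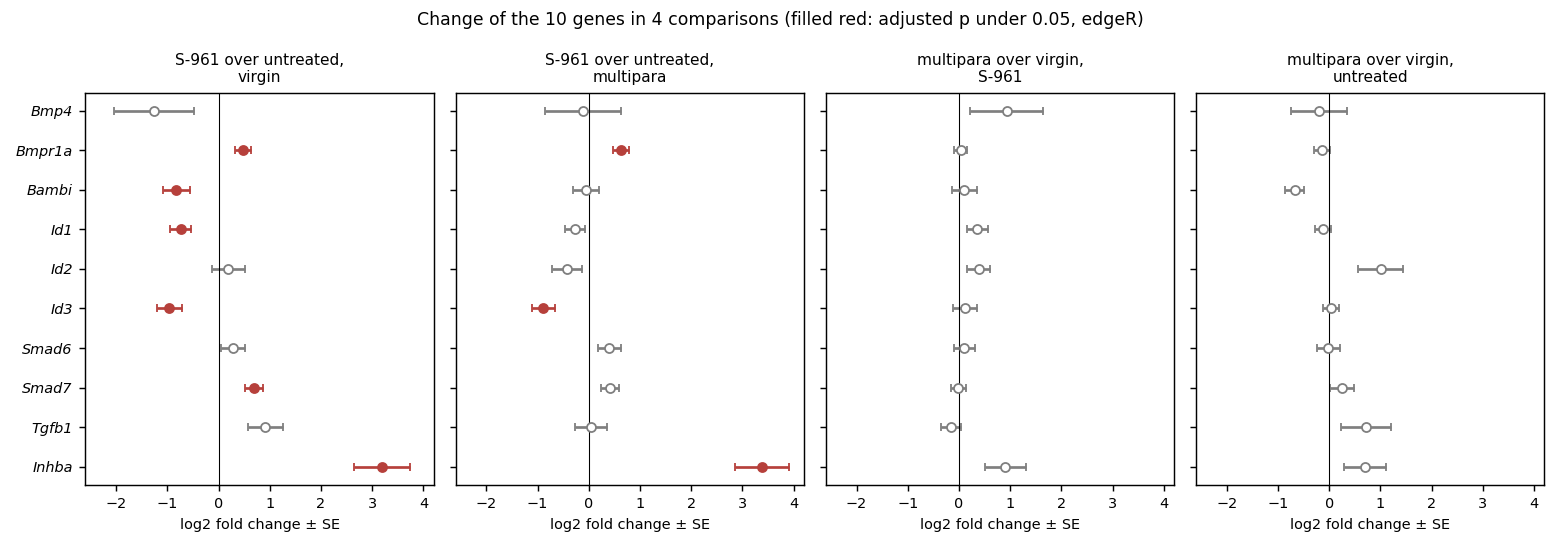
Log2 fold change with its SE of the 10 genes in 4 comparisons, filled red where the edgeR adjusted p was under 0.05. With S-961 6 genes pass in virgin and 3 in multipara islets, *Inhba* lies above 3 in both, and no gene passes between multipara and virgin islets.

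None of the 10 genes passed between multipara and virgin islets, with or without S-961, nor did any gene of the tables (percent of genes called 0 in both comparisons). With S-961, 1630 genes had an unadjusted p under 0.05 (9.71%), *Inhba* alone of the 10 was among them, and DESeq2 called 369 genes (2.2%), none of the 10. *Inhba* was higher in multipara islets by 0.90 ± 0.40 on the log2 scale (edgeR adjusted p = 0.512), but the groups overlapped, and over the alternatives the adjusted p ran from 0.0846 to 0.851. Leaving out 1 library at a time gave a log2 difference of 0.62 to 1.24 for *Inhba*. The other 9 log2 differences ran from -0.15 for *Tgfb1* to 0.93 for *Bmp4*. In untreated islets, 889 genes had an unadjusted p under 0.05 (5.62%) and DESeq2 called 56 (0.354%), again none of the 10. *Bambi* alone of the 10 was among the 889, lower in both multipara libraries than in both virgin ones by -0.68 ± 0.19 (edgeR adjusted p = 0.719). *Id2* (1.001 ± 0.44) and *Inhba* (0.70 ± 0.42) were higher in both multipara libraries than in both virgin ones, as 37.7% of genes did not overlap in 1 direction or the other in this comparison of 2 against 2. Without multipara untreated 2, which leaves only the library with high macrophage and lymphocyte markers, *Id2* (adjusted p = 0.000668) and *Tgfb1* (0.00652) passed. The interaction, which asks whether the S-961 response differed with parity, passed for no gene. None of the 10 had an unadjusted p under 0.05 there, where 1179 genes did (6.55%) and DESeq2 called 81 (0.45%), none of the 10.

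The activin and inhibin subunits form a group of their own around *Inhba*. Activins are dimers of β subunits, and inhibins, which oppose them, pair a β subunit with the α subunit encoded by *Inha*. *Inha* was at 13.2 and 17.3 CPM in virgin untreated and at 42.3, 37.9 and 47.8 CPM in virgin S-961 islets, and rose by 1.49 ± 0.22 (adjusted p = 0.000683). In multipara islets *Inha* was at 17.4 and 18.8 CPM untreated and at 43.2, 49.3, 29.7 and 36.7 CPM with S-961, and rose by 1.13 ± 0.21 (adjusted p = 0.00208). The S-961 and untreated libraries did not overlap in *Inha*. *Inhbb*, the βB subunit gene, was at 4.67 and 8.02 CPM in virgin untreated and at 25.3, 21.2 and 29.3 CPM in virgin S-961 islets (1.99 ± 0.48, adjusted p = 0.00832). In multipara islets *Inhbb* was at 7.33 and 6.68 CPM untreated and at 13.2, 14.6, 6.23 and 25.4 CPM with S-961 (1.08 ± 0.45, adjusted p = 0.0794). The highest of these, 25.4 CPM, belonged to multipara S-961 4, which lay among the virgin S-961 values, and the lowest, in replicate 3, lay below both untreated libraries. Without replicate 4 the multipara difference of *Inhbb* was 0.69 (adjusted p = 0.153), and without replicate 3 it was 1.34 and passed (adjusted p = 0.00831). Per kilobase of exon, *Inha* exceeded the β subunit genes in every group, at 28.9 against 5.94 for *Inhbb* and 0.652 CPM per kb for *Inhba* in virgin S-961 islets.

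**Figure D4:**
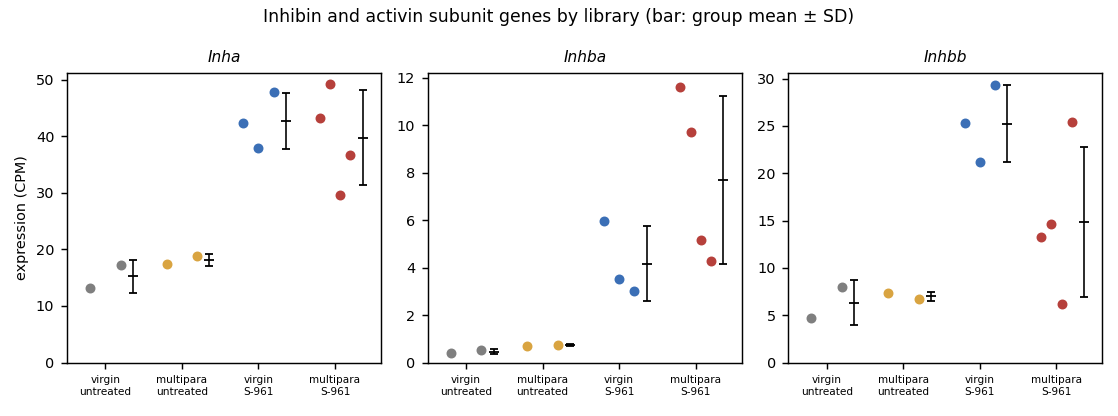
Expression (CPM, linear axes from 0) of the inhibin and activin subunit genes *Inha*, *Inhba* and *Inhbb* in each library, with the mean and SD of the 4 groups. S-961 libraries lie above untreated ones for *Inha* and *Inhba*, and *Inhbb* overlaps in multipara islets, where replicate 3 is at 6.23 CPM.

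Another 77 genes of the pathway, listed by role, were examined in the same fits, and 64 of them were tested with S-961 against untreated. In virgin islets 22 passed, 11 higher and 11 lower (34.4%), and in multipara islets 20 passed, 14 higher and 6 lower (31.2%), shares close to the 36.5% and 37.6% of all genes. There were 13 that passed in the same direction in both, 10 higher and 3 lower, which is 59.1% of the virgin and 65.0% of the multipara calls. Over all genes tested these shares were 73.8% and 71.6%.

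Of the 14 receptors and co-receptors, 4 rose in both parity groups. They were the type I receptors *Acvr1* (0.41 in virgin and 0.48 in multipara islets, on the log2 scale) and *Tgfbr1* (0.62 and 0.72), and the activin type II receptors *Acvr2a* (0.79 and 0.81) and *Acvr2b* (1.12 and 1.27). *Acvr2a* was at 15.3 and 14.6 CPM in virgin untreated and at 26.9, 27.1 and 23.6 CPM in virgin S-961 islets. The BMP co-receptor *Rgmb* fell in both (-0.40 and -0.34, the latter -0.18 without multipara untreated 2, adjusted p = 0.365), and *Rgma* fell in virgin islets (-1.08). *Tgfbr2*, the type II receptor for TGF-beta, passed in multipara islets only through untreated replicate 1 (34.2 against 11.98 CPM in replicate 2), and its log2 difference of -1.08 became -0.12 without that library and -1.63 without replicate 2. *Bmpr2* (0.62 and 0.52), *Acvr1c* (0.37 and -0.51), *Acvrl1* (-0.39 and -0.42) and *Eng* (-0.07 and 0.05) did not pass in either.

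Of the 6 Smad transducers, the common partner *Smad4* alone passed, at 31.0 and 27.7 CPM in virgin untreated and 42.2, 40.8 and 37.8 CPM in virgin S-961 islets (0.45 in virgin and 0.68 in multipara islets). *Smad1*, *Smad2*, *Smad3*, *Smad5* and *Smad9* had log2 differences from -0.76 to 0.25 in virgin and from 0.10 to 0.66 in multipara islets. Among the intracellular inhibitors, *Skil*, a corepressor of Smads, rose the most in both groups. It was at 19.6 and 21.8 CPM in virgin untreated and at 44.3, 41.6 and 43.9 CPM in virgin S-961 islets (1.06 ± 0.14, adjusted p = 0.000438), and its multipara change was 0.92 ± 0.14 (adjusted p = 0.000669). No S-961 library of *Skil* overlapped an untreated one. The ubiquitin ligase gene *Smurf2* rose as well (0.53 and 0.71), *Nedd4l* fell in virgin islets (-0.83), and *Pmepa1* did not pass (-0.27 and -0.38).

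The secreted antagonists went both ways. *Twsg1*, which binds BMPs, rose (0.81 and 0.84), *Lefty1* fell in both (-0.87 and -0.58, the latter -0.36 without multipara untreated 2, adjusted p = 0.254), and *Sost* fell in virgin islets (-1.74). *Chrd* passed in multipara islets (0.72), but not without multipara untreated 1 (0.42, adjusted p = 0.230), without multipara S-961 1 (0.69, adjusted p = 0.0538) or without both libraries that stood apart (0.43), and it was 1.09 without multipara untreated 2. *Fstl3* did not pass (-0.53 and -0.05), and *Nog* and *Fst* were too low to be tested. *Grem1*, a BMP antagonist of stromal cells, passed in multipara islets at -4.68, but 1 library decided this value. That library, multipara untreated 1, was at 5.90 CPM and replicate 2 at 0.0630 CPM, and without the first the difference was 0.81. Among the other ligands, *Tgfb2* (-1.10), *Bmp6* (-1.10) and *Bmp3* (-0.68) fell in virgin islets, *Tgfb3* rose in multipara islets (1.12), *Gdf11* passed in multipara islets (-1.42, and -0.91 without multipara untreated 1, adjusted p = 0.197), and *Bmp7* did not pass (1.07 and 0.78). Of the latent TGF-beta binding proteins, *Ltbp1* (-0.78) and *Ltbp2* (-2.06) fell in virgin islets and *Ltbp3* rose in multipara islets (0.41).

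Of the 7 tested pathway targets, *Ccn2*, a matricellular protein gene induced by TGF-beta, fell in both groups (-1.08 and -0.71). It was at 18.2 and 19.6 CPM in virgin untreated and at 8.01, 7.94 and 10.8 CPM in virgin S-961 islets. Of the 3 E proteins that Id proteins bind, *Tcf12* rose (0.87 and 0.70), while *Tcf3* (0.04 and -0.12) and *Tcf4* (0.04 and -0.05) did not pass. Leaving out 1 library at a time, *Inha*, *Acvr2a*, *Skil*, *Ccn2*, *Lefty1* and *Tcf12* kept their call each time in virgin islets (6 of 22), and *Inha*, *Acvr2a*, *Skil*, *Smad4*, *Smurf2* and *Tgfbr1* in multipara islets (6 of 20). The fewest of these calls were kept without an untreated library, namely 7 without virgin untreated 2, 9 without virgin untreated 1 (where *Inhbb* no longer passed), 11 without multipara untreated 1 and 13 without multipara untreated 2. Without both libraries that stood apart, 6 of the 13 genes called in both groups still passed in multipara islets, namely *Inha*, *Skil*, *Smad4*, *Ccn2*, *Lefty1* and *Rgmb*. None of the 77 genes passed between multipara and virgin islets or in the interaction.

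**Figure D5:**
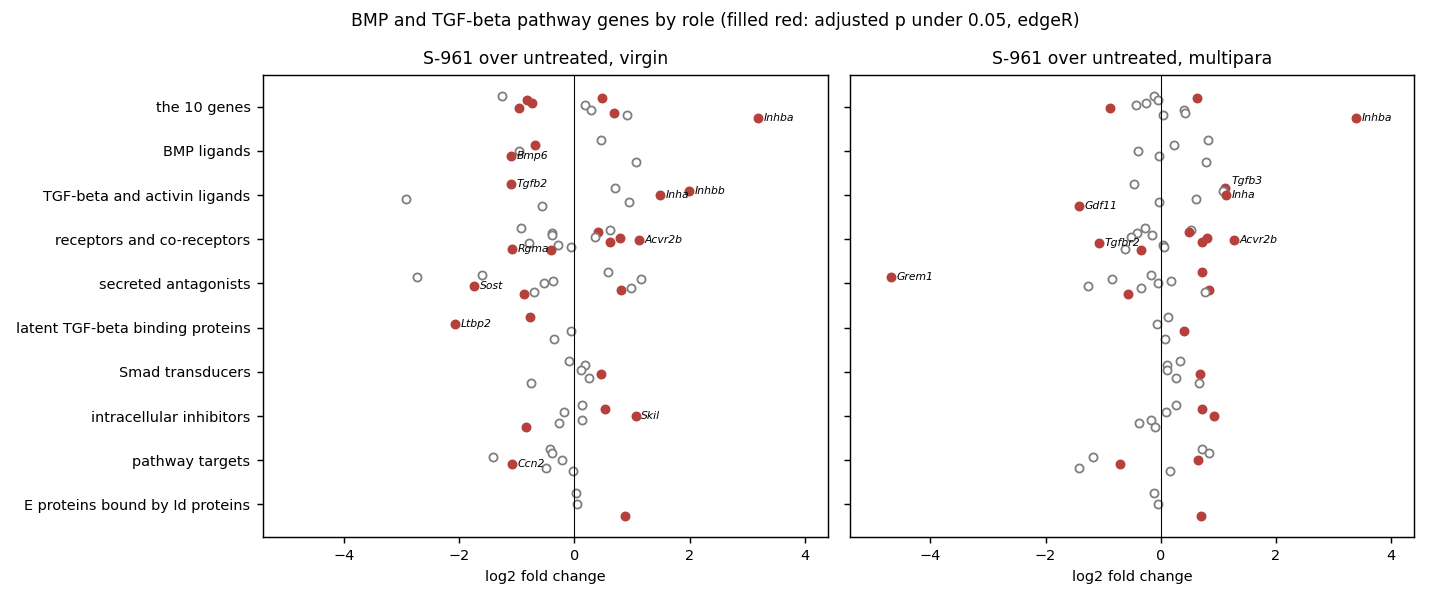
Log2 fold change of S-961 over untreated for the 10 genes and 64 other pathway genes by role, 1 point per gene, filled red where the edgeR adjusted p was under 0.05 and named where the change was also at least 1. *Inhba* lies farthest to the right in both parity groups, and the point of *Grem1* at -4.68 in multipara islets rests on multipara untreated 1.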

How the data were processed

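RNA was extracted with Trizol and libraries were made with a TruSeq Stranded mRNA kit, per the labels. The authors deposited 1 table per library that holds an estimated count (RSEM expected count) of reads for each gene, without normalization. The submitters' processing notes name STAR, RSEM and the build GRCm38 (mm10), with no versions, and whether counting used strand is not given in the sources used here. All 55536 rows matched GENCODE M21 by identifier and symbol. Some values were fractional (4449 to 5162 genes in each table, *Bmpr1a* among them in 5 libraries), and all were rounded to whole counts.

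Tests used edgeR 4.0.16 in R 4.3.3 on the whole table: TMM scaling, filterByExpr (minimum count 10, minimum total count 15), the quasi-likelihood F-test and Benjamini-Hochberg adjustment over all genes tested, with a threshold of 0.05. Multipara was compared with virgin within each treatment on its own libraries, and S-961 with untreated, and the interaction, on all 11. The SE is the log2 fold change divided by the square root of F. CPM used TMM-scaled library sizes over all 11 libraries. Total counts ran from 22028507 to 32234146. The fits were tested on simulated data. Alternatives were DESeq2 1.42.0, its size factors, scaling without *Ins1* and *Ins2*, no filter, a replicate block, other sets of libraries and leaving out each library.

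The genes described, the role lists, the marker lists and the 2 motifs were chosen with earlier results of these data known. Named were the 10 genes, 29 pathway genes picked for their role, and any listed gene that passed, of which 1 is not reported here. For *Id1* and *Inhba* the 5 genes with the highest Pearson r of log2 CPM (prior count 2) were added. No set test was run. Over 11 pairs of libraries of 1 group, a chi-square statistic per gene of 9.41 to 126.7 showed no repeated library.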

Additional observations from a re-analysis of the deposited data

Results flagged for a closer look

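*Smad2*, a receptor Smad of the TGF-beta and activin branch, was flagged because 1 multipara S-961 library lay far from the others. Its CPM was 25.9, 24.4, 26.0 and 26.2 in the 4 libraries, and the gap between the lowest, replicate 2, and the nearest of the others was 0.834 of the whole range. The range itself was narrow. Of 54 genes checked, *Smad2* alone was flagged, and chance flags about 1 in 20 groups.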

How the results depend on the processing

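The S-961 comparison called 6562 genes in virgin islets, between 3053 and 7466 with 1 library left out, and 1 to 7 of the 10 genes against 6. In multipara islets it called 6768 genes, 4428 with multipara libraries only, 3632 without both libraries that stood apart, and 3618 to 7451 with 1 library left out, with 2 to 4 of the 10 genes, or 1 without both libraries, against 3. Between multipara and virgin islets with S-961, where 0 genes passed, DESeq2 called 369, the replicate block 342, and leaving out 1 library 0 to 525, the most without multipara S-961 replicate 4. Untreated, DESeq2 called 56 genes, no filter gave 3, and leaving out 1 library gave 0 to 1738, with 0 to 2 of the 10 genes. The interaction called 81 genes with DESeq2, 4 without the filter, 34 with the replicate block, 50 without both libraries, and 0 to 45 with 1 library left out. Fewer libraries also changed the shared spread, and the cause of these moves was not tested.

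Over 13 pairs of libraries with the same replicate number, deviations from group means correlated at -0.15 to 0.28, above 0.1 in 5. Within each untreated group the deviations are mirror images of each other, so these pairs are not independent. The check therefore cannot decide whether replicate numbers pair the libraries. With the replicate block, *Bmpr1a* missed the threshold in virgin islets (adjusted p = 0.0963), and *Tgfb1* in multipara islets had the opposite sign (-0.11).

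Among the results given here, signs turned for differences that had not passed and, of the calls, for *Grem1*. Without both libraries that stood apart, the multipara S-961 log2 difference was 0.90 for *Bmp4*, 0.063 for *Bambi*, 0.40 for *Id2*, 0.52 for *Grem1* and 0.19 for *Tcf3*, and the interaction was -0.056 for *Bmpr1a*, 0.21 for *Id2* and 0.011 for *Smad7*. Without the filter, *Fstl3* in multipara islets was 0.0041. Leaving out 1 library gave ranges that cross 0 as follows. With S-961, multipara against virgin: *Bmpr1a* -0.039 to 0.089, *Bambi* -0.058 to 0.43, *Id3* -0.10 to 0.25, *Smad6* -0.040 to 0.18, *Smad7* -0.095 to 0.024, *Inha* -0.21 to 0.022. Untreated, multipara against virgin: *Bmp4* -1.07 to 0.27, *Bmpr1a* -0.35 to 0.029, *Id3* -0.11 to 0.19, *Smad6* -0.11 to 0.077, *Smad7* -0.058 to 0.48, *Tgfb1* -0.13 to 1.22, *Tgfbr2* -0.30 to 1.25. S-961 against untreated in virgin: *Eng* -0.17 to 0.023, *Tcf3* -0.049 to 0.13. S-961 against untreated in multipara: *Bmp4* -0.62 to 0.70, *Bambi* -0.13 to 0.076, *Id2* -0.90 to 0.30, *Tgfb1* -0.46 to 0.86, *Eng* -0.091 to 0.23, *Fstl3* -0.33 to 0.31, *Grem1* -5.65 to 0.81, *Smad3* -0.20 to 0.49, *Tcf3* -0.36 to 0.18. Interaction: *Bmpr1a* -0.038 to 0.38, *Id2* -1.09 to 0.11, *Id3* -0.14 to 0.22, *Smad6* -0.035 to 0.20, *Smad7* -0.49 to 0.0067, *Inhba* -0.078 to 0.54. Depth limits *Bmp4*, at 3 to 45 counts, and *Inhba* in untreated islets, at 10 to 16 counts.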
